A study of Mus musculus with 10 samples.

Results

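Long intergenic non-coding RNAs (lincRNAs) that were well detected in the mouse heart ventricle were compared between sham-operated and naive mice. They were chosen by their counts, as the genes of the deposited table with the biotype lincRNA and at least 500 raw counts summed over the 10 libraries, with Gm42418 left out. This gave 53 of the 2619 lincRNA genes in the table, and 40690 genes of all kinds were listed. The summed counts chose these genes, so their abundance is a description and not a finding. The lowest totals inside the limit were 503 counts for Snhg12, 505 for Gm20342, 523 for Dubr and 526 for 4732491K20Rik. Just outside it lay Snhg6 with 494 counts, 1700096K18Rik with 487, Gm12319 with 464 and Gm26615 with 454.

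The sham group was 5 samples from male C57BL/6 mice that had undergone the operation used as the control for ischemia-reperfusion, without the ischemia itself. They were set against 5 samples from naive male C57BL/6 mice with no operation, and the mice of both groups were 10 weeks old. Poly(A) RNA of the ventricles was selected with oligo(dT) and sequenced as single ends without strand, so transcripts that lack a poly(A) tail are under-represented. The sources used here do not give how long after the operation the hearts were taken. Nothing in them says how the samples were collected beyond their being separate, so a p-value here speaks of the spread among the samples, which may be technical.

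LincRNAs are transcribed by RNA polymerase II like messenger RNAs, and most are spliced and polyadenylated, but they have no long open reading frame. Some act in the nucleus, as scaffolds of nuclear bodies or on nearby chromatin, and others serve as precursors of microRNAs or small nucleolar RNAs. In the heart several are known from the fetal myocardium, from imprinted loci (where a single parental allele is transcribed) and from smooth muscle. Annotated lincRNAs also include genes later found to encode small peptides and bidirectional transcripts that start beside a coding gene.

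Library totals ran from 10654107 to 21537135 counts in sham and from 9683181 to 17577906 in naive libraries. Values are given as CPM, the counts of a gene relative to a fixed library total, with TMM factors that correct for composition. There 3 counts stood at 0.139 CPM in the deepest and at 0.310 CPM in the shallowest library, a floor that covers counting error only. Gm42418, which resembles ribosomal RNA, took 1.96% to 8.87% of the counts in sham and 5.11% to 10.4% in naive libraries, with sham 4 the highest of its group. Heart muscle markers summed to 82036 to 93386 CPM in sham and 111248 to 114444 CPM in naive libraries, with 1 of 15 higher and 13 lower. Fibroblast markers summed to 15856 to 27235 CPM in sham and 3277 to 4166 CPM in naive libraries, with 10 of 12 higher. Their median log2 fold change was 1.08, a smaller difference than that of the sums, in which abundant genes weigh most. Macrophage markers summed to 1395 to 1718 CPM in sham and 443 to 542 CPM in naive libraries, and all 12 were higher. In bulk tissue, fewer cells of a type and less RNA per cell cannot be told apart, and the part of these shifts in the lincRNA results was not tested.

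Among the sequences behind the results are the microRNAs that lie in 3 of the higher lincRNAs. They are shown because H19, Meg3 and Mirg are precursors of them, with the seed (bases 2 to 8, which pairs with targets) in capitals, as RefSeq gives them on GRCm38.p6. H19 holds 2 mature microRNAs, Meg3 holds 3 and Mirg holds 26, with 25 different seeds in Mirg. Poly(A) libraries do not measure mature microRNAs, so no level is given for them.
mmu-miR-675-5p (H19): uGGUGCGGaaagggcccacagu
mmu-miR-675-3p (H19): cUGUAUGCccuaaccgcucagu
mmu-miR-770-5p (Meg3): aGCACCACgugucugggccacg
mmu-miR-770-3p (Meg3): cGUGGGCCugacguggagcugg
mmu-miR-1906 (Meg3): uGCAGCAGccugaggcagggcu
mmu-miR-453 (Mirg): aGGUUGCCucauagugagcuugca
mmu-miR-496a-5p (Mirg): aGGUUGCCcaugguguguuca
mmu-miR-134-5p (Mirg): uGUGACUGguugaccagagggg
mmu-miR-377-3p (Mirg): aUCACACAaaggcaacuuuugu
mmu-miR-410-3p (Mirg): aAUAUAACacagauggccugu
The seed of mmu-miR-453 is the same as that of mmu-miR-496a-5p, and it is the only seed that occurs more than once within Mirg. None of the seeds printed for H19 or Meg3 is shared with the Mirg microRNAs printed here.

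A small group of lincRNAs was much more abundant in sham than in naive ventricles, and most of the 53 differed little. The genes Meg3, Mirg, Gm22, H19 and Snhg18 rose 2.24-fold to 4.52-fold. Genes past the threshold and at least 2-fold higher made up 9.43% of the 53 and 7.30% of all tested genes. These shares are near each other, so the number of such rises is no result about lincRNAs as a group. Gm17281, Fam120aos, Gm16576, 1700020I14Rik, 1810058I24Rik and C330006A16Rik fell, by 0.23 to 0.63 on the log2 scale. All 53 passed the filter on low counts and were tested with edgeR's quasi-likelihood F test among 13622 genes, with Benjamini-Hochberg adjustment over all of them and a threshold of 0.05 for the adjusted p.

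The 5 higher lincRNAs are 9.43% of the 53, against 17.2% of all tested genes, and the 6 lower ones are 11.3%, against 15.5%. All tested genes include many below 500 counts. Of the 10771 tested genes with at least 500 counts, 17.5% were higher and 18.5% lower. The lincRNAs were thus called in either direction at a share below that of all genes (32.7%), and the difference between the shares was not tested. In 5 lincRNAs every sham value exceeded every naive value, which held for 13.6% of tested genes, and in 3 all lay below, which held for 9.18%. The median log2 fold change was -0.13 over the 53 and -0.05 over all tested genes, and the median size of the change was 0.23 and 0.26. Meg3, Mirg, Snhg12, Gm20342 and Dubr had fewer than 250 counts in the 5 naive libraries and reached the limit of 500 through their sham counts. Of these, Meg3 and Mirg are among the higher ones, so the counts of calls among the 53 are descriptions.

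**Figure D1:**
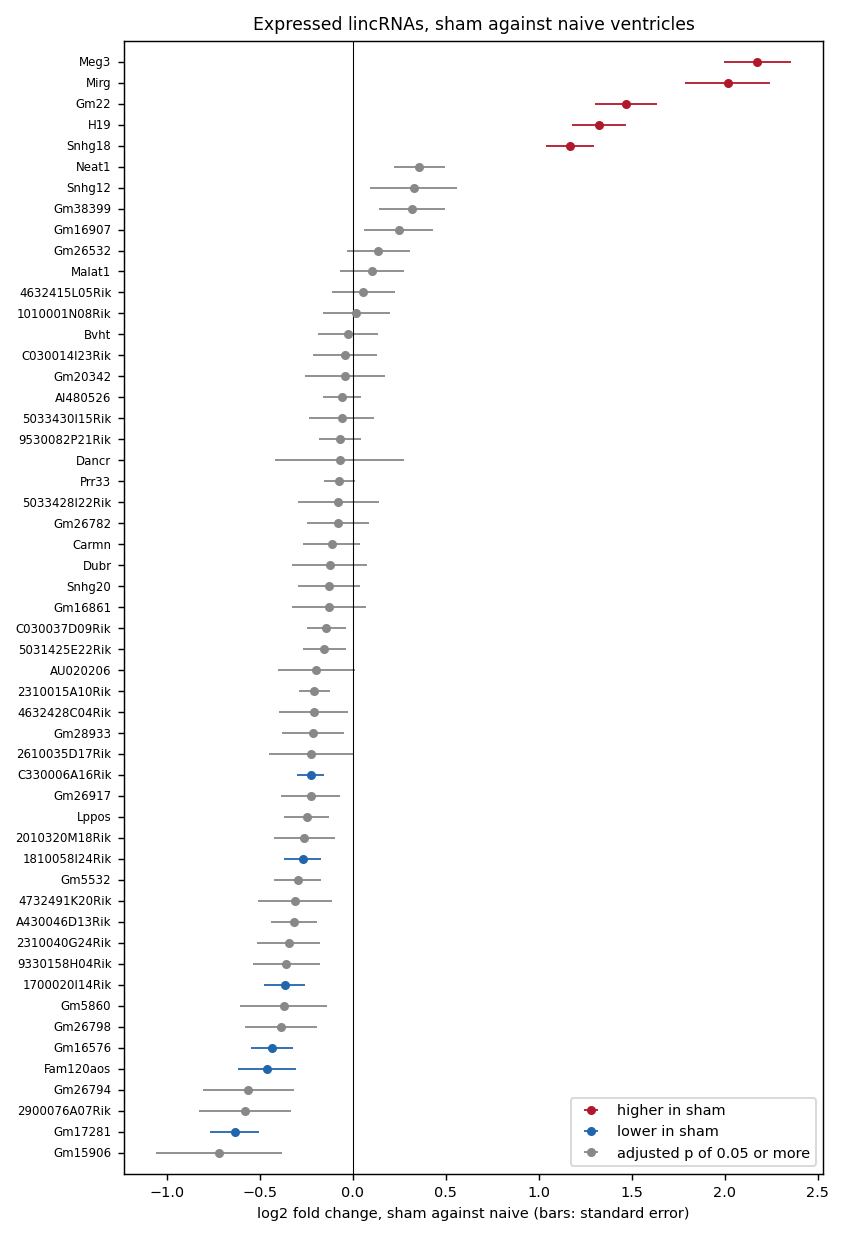
Log2 fold change of each of the 53 lincRNAs, sham against naive (points, with standard error as bars), ordered by value. The 5 higher lincRNAs stand apart on the right at 1.17 to 2.18, and the 6 lower ones lie among lincRNAs that did not pass, between -0.63 and -0.23.

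The highest fold changes were in 2 lincRNAs of a single imprinted domain on chromosome 12, Meg3 and Mirg. Meg3 (ENSMUSG00000021268, chromosome 12, 109541001 to 109571726, plus strand, GRCm38) is the maternally expressed transcript that heads the domain, and it is known as a growth-restraining RNA and as a host of microRNAs. Meg3 had 4.59, 5.76, 5.70, 7.23 and 6.07 CPM in sham libraries 1 to 5, against 1.31, 1.42, 1.03, 1.41 and 1.33 CPM in naive libraries 1 to 5. Its lowest sham library was well above its highest naive library. It averaged 5.87 ± 0.945 CPM in sham and 1.30 ± 0.159 CPM in naive libraries (SD, n = 5 each), a log2 fold change of 2.18 ± 0.18 (SE, edgeR adjusted p = 2.09e-07). These values rest on 532 counts in sham and 86 counts in naive libraries. Per kb of exon Meg3 was the lowest of the 51 lincRNAs with a known length, at 0.325 CPM per kb in sham and 0.0717 CPM per kb in naive libraries. Exon length is here the merged length of all annotated exons of a gene, 18089 bases for Meg3, and such ranks depend on it.

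Mirg (ENSMUSG00000097391, chromosome 12, 109729764 to 109749460, plus strand), which starts 158 kb beyond the end of Meg3, is the transcript that carries the large cluster of microRNAs named above. Mirg had 3.55, 4.03, 4.63, 6.52 and 6.77 CPM in sham libraries, against 1.55, 1.11, 1.42, 1.25 and 1.14 CPM in naive libraries. The groups did not overlap, and the spread among sham libraries was wider than among naive ones. Its log2 fold change was 2.02 ± 0.23 (edgeR adjusted p = 5.25e-06), a 4.04-fold difference on 480 sham counts and 83 naive counts. Of its exon bases 5.0% overlap its own microRNA genes, and of those of Meg3 8.3% overlap other genes, 6.8% on the other strand, so a small part of the counts of both is uncertain.

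The rest of the same domain had few or no counts. Rian, a non-coding transcript that lies between them and has the biotype processed transcript, had 0 counts in all 10 libraries. So did the coding genes Dlk1 and Rtl1, which are transcribed from the paternal allele. The counting mode and annotation release are not given, and whether these 0 counts mean that the transcripts were absent was not tested. Dio3, which encodes the deiodinase that inactivates thyroid hormone and lies 529.6 kb beyond Mirg, was too low to be tested. Dio3 had 1.21, 0.972, 1.54, 1.12 and 0.489 CPM in sham libraries, against 0.119, 0.123, 0.237, 0.157 and 0.442 CPM in naive libraries, or 88 sham counts and 15 naive counts. Every sham value of Dio3 exceeded every naive value, with sham 5 and naive 5 close to each other.

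The promoter of Meg3 is shown because it heads the domain in which both lincRNAs rose. In RefSeq on GRCm38.p6 the 300 bases from 250 before to 50 after its start are chr12:109540746-109541045 on the plus strand, with matches to TGACG (the core that CREB-type factors bind) and TATAAA in capitals, searched on both strands.
Meg3 promoter: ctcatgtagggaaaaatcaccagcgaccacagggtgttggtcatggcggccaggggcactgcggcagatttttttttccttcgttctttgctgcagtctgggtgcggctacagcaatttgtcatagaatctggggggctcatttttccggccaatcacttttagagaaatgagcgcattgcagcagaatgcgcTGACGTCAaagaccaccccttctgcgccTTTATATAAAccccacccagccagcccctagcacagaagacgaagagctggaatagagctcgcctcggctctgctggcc
Here TGACG matched at bases 194 to 198 and, on the other strand and overlapping it, at bases 197 to 201, counted from the first printed base. TATAAA matched at bases 226 to 231 and, on the other strand, at bases 222 to 227, also overlapping. Over 32851 promoters of the same length, 20.8% hold TGACG and 13.6% hold TATAAA on either strand. A match is a description of the letters, and no binding was measured.

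H19 (ENSMUSG00000000031, chromosome 7, 142575529 to 142578143, minus strand) is the maternally expressed lincRNA of the Igf2 locus, abundant in the fetal heart and silenced in most tissues after birth. It had 46.6, 33.3, 40.1, 43.1 and 50.3 CPM in sham libraries, against 22.1, 20.1, 12.6, 14.7 and 16.04 CPM in naive libraries. No naive library reached the lowest sham library. The means were 42.7 ± 6.52 CPM in sham and 17.1 ± 3.89 CPM in naive libraries, a log2 fold change of 1.32 ± 0.15 (edgeR adjusted p = 4.53e-06) on 3815 sham counts and 1114 naive counts. Of its exon bases 9.1% overlap other annotated genes, its microRNA among them. Per kb of exon, H19 was the sixth highest of the 51 lincRNAs in sham libraries, at 17.4 CPM per kb, and ranked 18 in naive libraries, at 6.96 CPM per kb.

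Igf2, the paternally expressed growth factor gene 72.6 kb from H19, did not pass. It had 59.9, 36.6, 34.7, 39.2 and 42.4 CPM in sham libraries, against 61.0, 54.1, 51.2, 44.5 and 47.7 CPM in naive libraries, with overlap through sham 1 (log2 fold change -0.28 ± 0.14, edgeR adjusted p = 0.125). Mrpl23, which encodes a mitochondrial ribosomal protein and is the coding gene nearest to H19 at 34.8 kb, stood at 1.42 ± 0.487 CPM in sham and 1.41 ± 0.391 CPM in naive libraries.

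Of 17 listed genes of imprinted domains, 16 were in the table and 11 could be tested, and 3 were higher, 2 lower and 6 not past, where 17.2% of all tested genes were higher and 15.5% lower. The 3 higher genes were Meg3, Mirg and H19. The 2 lower ones were Cdkn1c, a cell cycle inhibitor made from the maternal allele, and Kcnq1, a potassium channel subunit of the same domain. Cdkn1c had 39.0, 25.1, 29.0, 34.9 and 28.1 CPM in sham libraries, against 55.6, 49.5, 47.9, 45.1 and 36.5 CPM in naive libraries, and naive 5 lay within the sham range (log2 fold change -0.59 ± 0.13, edgeR adjusted p = 0.00243). Kcnq1 was at -0.27 ± 0.09 (edgeR adjusted p = 0.0320). Non-coding transcripts of other imprinted domains, with the biotype antisense, did not pass, with Kcnq1ot1, the antisense silencer within Kcnq1, at -0.02 and Airn, the antisense silencer of Igf2r, at -0.18 on the log2 scale. Kcnq1ot1 lies within Kcnq1 on the other strand, so reads of both may be mixed in these libraries. The list's median log2 fold change was -0.02, against -0.05 over all tested genes.

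**Figure D2:**
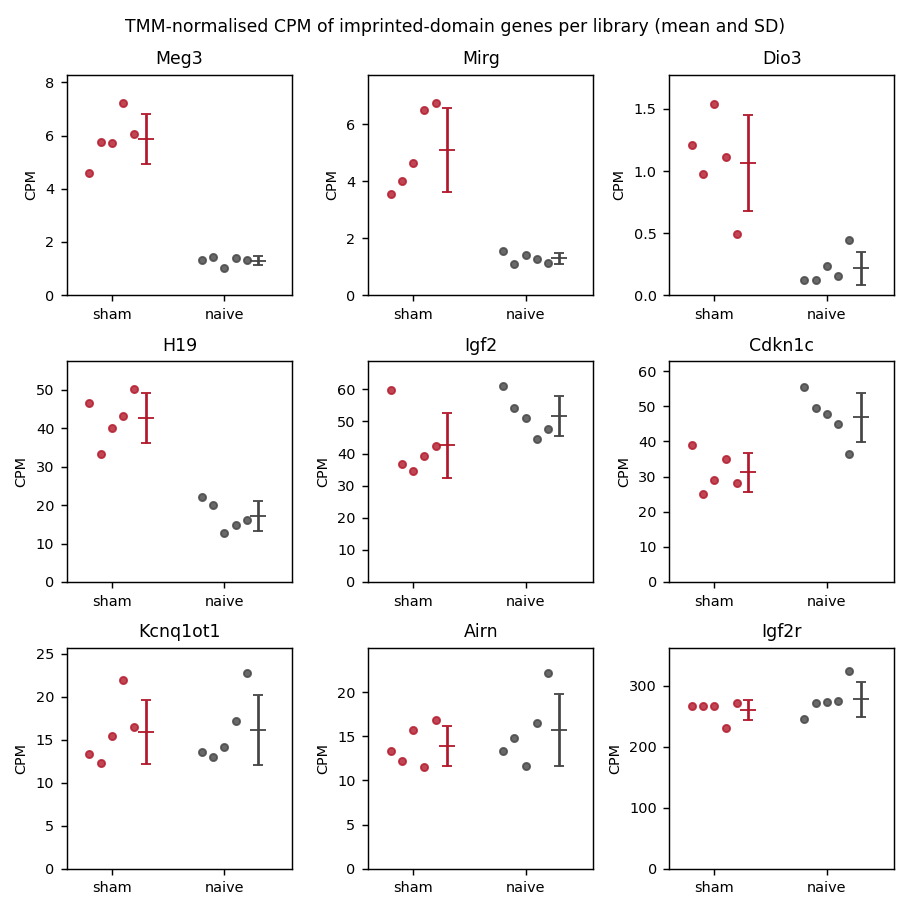
TMM-normalised CPM of 9 genes of imprinted domains in each library (points), sham left of naive, with mean and SD beside the points. Meg3, Mirg, Dio3 and H19 do not overlap between groups and are higher in sham, whereas Igf2, Kcnq1ot1, Airn and Igf2r overlap and Cdkn1c is lower on average (31.2 CPM in sham and 46.9 CPM in naive libraries).

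Gm22 (ENSMUSG00000043903, chromosome 8, 122269569 to 122272650, plus strand) was the most abundant of the higher lincRNAs after H19. The count table gives it as a lincRNA, and GENCODE M21 gives the same identifier 1 exon and the biotype lincRNA. The name in GENCODE M21 is Zfp469, that of a zinc finger gene whose human counterpart is linked to thin corneas and connective tissue. Whether its reads come from a coding transcript of that gene was not tested, so its place among the lincRNAs rests on the annotated biotype. Gm22 had 20.5, 25.8, 30.5, 16.2 and 26.3 CPM in sham libraries, against 9.99, 8.24, 9.64, 6.43 and 8.90 CPM in naive libraries. The groups did not overlap, and sham 4 and naive 4 were the lowest of their groups. The log2 fold change was 1.47 ± 0.17 (edgeR adjusted p = 5.56e-06) on 2072 sham counts and 563 naive counts. The read-through gene Gm20388, which spans the region on the same strand, had 0 counts in all libraries.

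Snhg18 (ENSMUSG00000096956, chromosome 15, 32240565 to 32244662, minus strand) is the host transcript of a small nucleolar RNA. It had 9.09, 8.75, 8.25, 10.6 and 8.68 CPM in sham libraries, against 4.05, 4.37, 3.48, 4.39 and 3.91 CPM in naive libraries. The 10 libraries formed 2 tight groups, and the means were 9.07 ± 0.894 CPM in sham and 4.04 ± 0.375 CPM in naive libraries. The log2 fold change was 1.17 ± 0.13 (edgeR adjusted p = 4.47e-06) on 804 sham counts and 267 naive counts.

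**Figure D3:**
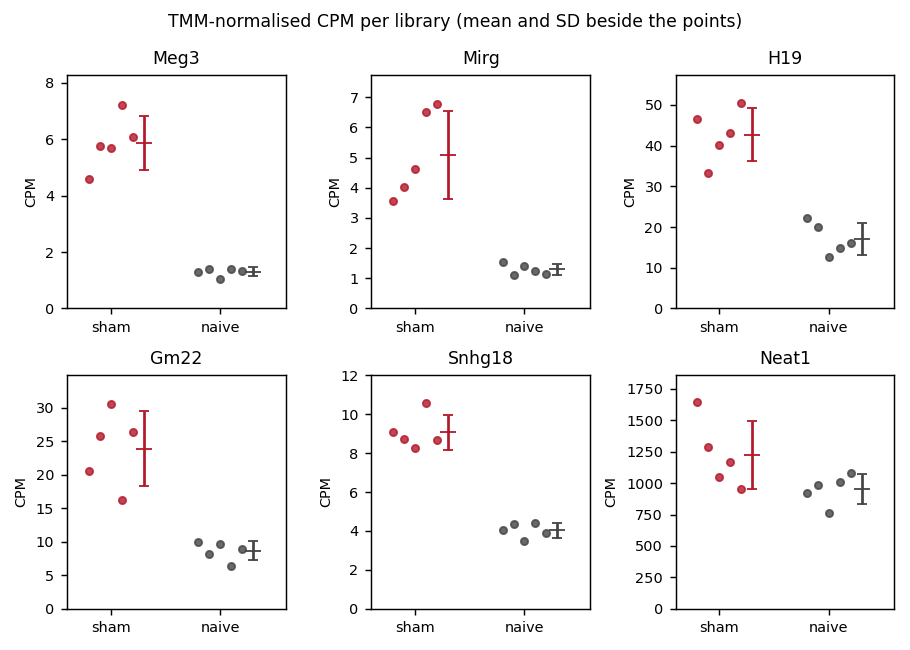
TMM-normalised CPM of the higher lincRNAs and of Neat1 in each library (points), sham left of naive, with mean and SD beside the points. In Meg3, Mirg, Gm22, H19 and Snhg18 every sham library lies above every naive library, and in Neat1 the groups overlap.

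Snhg18 starts back to back with Sema5a, which encodes a transmembrane semaphorin, and 147 bases lie between the annotated starts. Their shared stretch is shown because the lincRNA rose and the coding gene did not pass. Sema5a averaged 8.95 ± 2.39 CPM in sham and 7.61 ± 1.18 CPM in naive libraries (log2 fold change 0.24 ± 0.18, edgeR adjusted p = 0.339). The RefSeq promoter of Snhg18 is chr15:32244613-32244912 on the minus strand of GRCm38.p6, with the bases between the 2 starts in capitals.
Snhg18 promoter: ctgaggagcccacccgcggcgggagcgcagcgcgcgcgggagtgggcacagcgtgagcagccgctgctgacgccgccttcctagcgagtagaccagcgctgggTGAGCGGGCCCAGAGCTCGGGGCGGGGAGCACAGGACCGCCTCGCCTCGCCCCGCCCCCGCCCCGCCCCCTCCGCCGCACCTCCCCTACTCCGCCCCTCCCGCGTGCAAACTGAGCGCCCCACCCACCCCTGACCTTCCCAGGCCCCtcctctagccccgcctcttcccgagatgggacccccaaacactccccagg
This stretch has 75.3% G and C, 31 CpG dinucleotides and 5 matches to GGGCGG (the core of the GC box that Sp1-type factors bind), counted on both strands over the 300 bases. The median promoter holds 7 CpG dinucleotides, and 35.7% of promoters hold GGGCGG.

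Other transcripts that host small RNAs were also compared. Of 27 listed hosts 23 were in the table and 18 were tested, and 7 were higher, 0 lower and 11 not past, where 17.2% of all tested genes were higher and 15.5% lower. The median log2 fold change was 0.36, against -0.05 over all tested genes, and the difference was not tested. The higher ones beside Snhg18 have other biotypes. Gas5, a host of many small nucleolar RNAs that accumulates when growth stops, was at 0.71 (edgeR adjusted p = 0.0308). Its groups overlapped, with sham 4 at 24.3 CPM, the next sham library at 14.7 CPM and the highest naive library at 12.4 CPM. Zfas1, another such host, was at 0.76 (edgeR adjusted p = 0.0106), Snhg17 at 0.63 (0.00507) and Snhg5 at 1.06 (0.0233). The groups did not overlap in Zfas1 and Snhg17 but did in Snhg5, which rests on 99 sham counts and 35 naive counts. Mir22hg, the precursor of the muscle-rich miR-22, was at 0.51 (0.00765), and Dnm3os, the precursor of the miR-199a and miR-214 cluster found in fibroblasts, at 1.13 (0.00983). Both Mir22hg and Dnm3os overlapped between groups, and Dnm3os had 208 sham counts and 71 naive counts. Among the well-detected lincRNAs that host small nucleolar RNAs, Snhg12 (0.33 ± 0.23, edgeR adjusted p = 0.313) and Snhg20 (-0.13 ± 0.17, edgeR adjusted p = 0.599) did not pass.

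The 3 most abundant lincRNAs, Gm26917, Malat1 and Neat1, held 87.0% ± 1.24 of the counts of all 53 in sham and 86.3% ± 0.916 in naive libraries (SD, n = 5 each), and none of the 3 passed the test. The 53 together took 0.617% ± 0.0492 of counted reads in sham libraries (range 0.573 to 0.693) and 0.518% ± 0.0327 in naive libraries (range 0.472 to 0.558). Without the features that resemble ribosomal RNA, in both the lincRNAs and the total, the shares were 0.416% ± 0.0579 in sham and 0.341% ± 0.0512 in naive libraries. These shares are of library totals, without the TMM factors, which were 1.04 to 1.15 in sham and 0.870 to 0.975 in naive libraries. Shares and CPM are thus on different scales, so the difference in shares is no result about lincRNAs as a group. In CPM, the 50 lincRNAs other than Gm26917, Malat1 and Neat1 together stood at 727 ± 23.7 in sham and 780 ± 23.9 in naive libraries.

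Neat1 (chromosome 19, 5824708 to 5845478, minus strand) is the scaffold of paraspeckles, nuclear bodies that hold RNA-binding proteins. It had 1648, 1288, 1048, 1167 and 951 CPM in sham libraries, against 920, 983, 763, 1013 and 1082 CPM in naive libraries, and sham 3 and sham 5 lay within the naive range. The log2 fold change was 0.36 ± 0.14 with an edgeR adjusted p of 0.0549, just short of the threshold. The call depended on the setting: Neat1 passed in 11 of 22 alternatives, with adjusted p from 0.00136 to 0.156, and among them it passed when naive 5, sham 3, sham 4 or sham 5 was left out.

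Malat1 (chromosome 19, 5795690 to 5802672, minus strand), 22.0 kb from Neat1, is a nuclear RNA of the speckles where splicing factors gather. Malat1 had 1431, 1449, 1273, 2354 and 1338 CPM in sham libraries, against 1171, 1286, 1285, 1781 and 1783 CPM in naive libraries. Sham 4 was far above the rest, and the log2 fold change of 0.10 ± 0.17 (edgeR adjusted p = 0.687) became -0.062 without it. Of 17 listed nuclear body transcripts and proteins 16 were tested, and 3 were higher, 0 lower and 13 not past. The share that was higher is near that of all tested genes (17.2%), so it is no result about the list. Among those higher were the paraspeckle protein Nono at 0.41 (edgeR adjusted p = 0.00498) and the splicing factor Srsf2 at 0.32 (edgeR adjusted p = 0.0482).

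The 3' ends of Malat1 and of the long form of Neat1 are known to lack an ordinary poly(A) tail and to be closed by a triple helix that includes an A-rich tract, and their letters are shown because these libraries were selected with oligo(dT). Within the last 1000 bases of each transcript, the window of 15 bases richest in A, in capitals, had 13 A in Malat1 (printed stretch chr19:5795952-5796026, minus strand) and 10 A in Neat1 (chr19:5824708-5824752, minus strand).
Malat1: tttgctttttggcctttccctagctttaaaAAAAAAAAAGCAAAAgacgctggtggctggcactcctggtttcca
Neat1: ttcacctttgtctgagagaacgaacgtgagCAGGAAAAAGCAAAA
The Neat1 stretch ends at the last base of the annotated transcript. How many Malat1 and Neat1 molecules were captured through such tracts was not measured, so their levels set against those of other lincRNAs are uncertain. Whether this capture was equal in all libraries was not tested, so their comparison between groups carries that limit too.

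Gm26917 (chromosome 17, 39843013 to 39846341, plus strand) had the most counts of all 53 and is listed among the features that resemble ribosomal RNA, so its value is uncertain as expression. It had 1976, 2056, 2251, 2391 and 1989 CPM in sham libraries, against 3236, 2974, 2733, 1773 and 1764 CPM in naive libraries. The naive libraries split into 3 high and 2 low ones, with the sham libraries between them (log2 fold change -0.23 ± 0.16, edgeR adjusted p = 0.293). Of 6 tested features of this kind 0 were higher, 2 lower and 4 not past, where 17.2% of all tested genes were higher and 15.5% lower. Their median log2 fold change was -1.16. Together they summed to 44397 to 112128 CPM in sham and 117330 to 206779 CPM in naive libraries, so these sums did not overlap. The part of this difference in the lincRNA results was not tested.

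The lower lincRNAs changed much less than the higher ones, and several lay close enough to the threshold for the call to be lost with a library left out. Gm17281 (chromosome 2, 91250743 to 91255995, minus strand) had the largest decrease past the threshold. It had 6.67, 7.22, 8.12, 8.30 and 7.21 CPM in sham libraries, against 8.92, 10.2, 12.8, 13.6 and 12.6 CPM in naive libraries. No sham library reached the lowest naive library, and the log2 fold change was -0.63 ± 0.13 (edgeR adjusted p = 0.00168). Gm17281 overlaps the start of Pacsin3 on the opposite strand by 1.2% of its exon bases. Pacsin3, which encodes a membrane-shaping protein rich in muscle, fell too, to 242 ± 23.7 CPM in sham against 293 ± 23.7 CPM in naive libraries (log2 fold change -0.28 ± 0.09, edgeR adjusted p = 0.0264).

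Gm16576 and Fam120aos, like Snhg18, start close to a coding gene on the opposite strand. Gm16576 (chromosome 15, 79742698 to 79757394, plus strand) had 7.80, 7.43, 7.31, 7.05 and 7.42 CPM in sham libraries, against 9.52, 11.6, 8.53, 10.1 and 10.1 CPM in naive libraries. The groups did not overlap (log2 fold change -0.43 ± 0.11, edgeR adjusted p = 0.00795), and its partner Sun2, a protein of the nuclear envelope, was at -0.27 ± 0.10 (edgeR adjusted p = 0.0628). Fam120aos (chromosome 13, 48968287 to 48972031, plus strand) had 13.0, 8.47, 10.5, 9.86 and 11.0 CPM in sham libraries, against 18.9, 15.6, 16.1, 10.9 and 11.6 CPM in naive libraries. Its groups overlapped through sham 1 and sham 5 with naive 4 and naive 5 (log2 fold change -0.46 ± 0.16, edgeR adjusted p = 0.0322). Fam120aos did not pass when naive 1, 2 or 3 or sham 2, 3, 4 or 5 was left out, with adjusted p of 0.0593 to 0.104 and log2 fold changes of -0.46 to -0.37.

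The lincRNA 1700020I14Rik (chromosome 2, 119594297 to 119607502, plus strand), also known as Oip5os1 or Cyrano, carries a conserved site that pairs with the microRNA miR-7 and leads to its decay. It had 92.2, 94.4, 95.9, 73.2 and 85.9 CPM in sham libraries, against 95.5, 120, 105, 104 and 143 CPM in naive libraries. Only sham 3 exceeded the lowest naive library, naive 1 (log2 fold change -0.37 ± 0.11, edgeR adjusted p = 0.0184). It did not pass without sham 4 (log2 fold change -0.28, adjusted p = 0.0605) or sham 5 (log2 fold change -0.34, adjusted p = 0.0626).

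C330006A16Rik and 1810058I24Rik were the 2 most abundant of the lower lincRNAs per kb of exon, at 42.0 and 24.2 CPM per kb in sham, against 49.2 and 29.2 CPM per kb in naive libraries. C330006A16Rik (chromosome 2, 26136814 to 26140521, minus strand), which GENCODE M21 names Tmem250-ps, had 112, 96.3, 99.3, 109 and 106 CPM in sham libraries, against 130, 120, 121, 117 and 122 CPM in naive libraries. All sham libraries were below all naive ones (log2 fold change -0.23 ± 0.07, edgeR adjusted p = 0.0271), but the call was lost without sham 2, 3 or 5 (log2 fold changes of -0.21 to -0.18, adjusted p of 0.0632 to 0.111) and the value was 0.039 when libraries were scaled by their totals alone. Of its exon bases 14.8% overlap 1810012K08Rik on the other strand. 1810058I24Rik (chromosome 6, 35252654 to 35263496, plus strand), counted as a lincRNA, is known to encode a small mitochondrial membrane peptide. It had 68.4, 61.0, 57.0, 82.3 and 67.7 CPM in sham libraries, against 85.5, 80.2, 88.6, 79.6 and 72.4 CPM in naive libraries. Sham 4 lay within the naive range, and the decrease was at the edge of the threshold (log2 fold change -0.27 ± 0.10, edgeR adjusted p = 0.0477). It passed in 8 of 22 alternatives, and of the libraries left out in turn it passed only without naive 5 or sham 4.

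**Figure D4:**
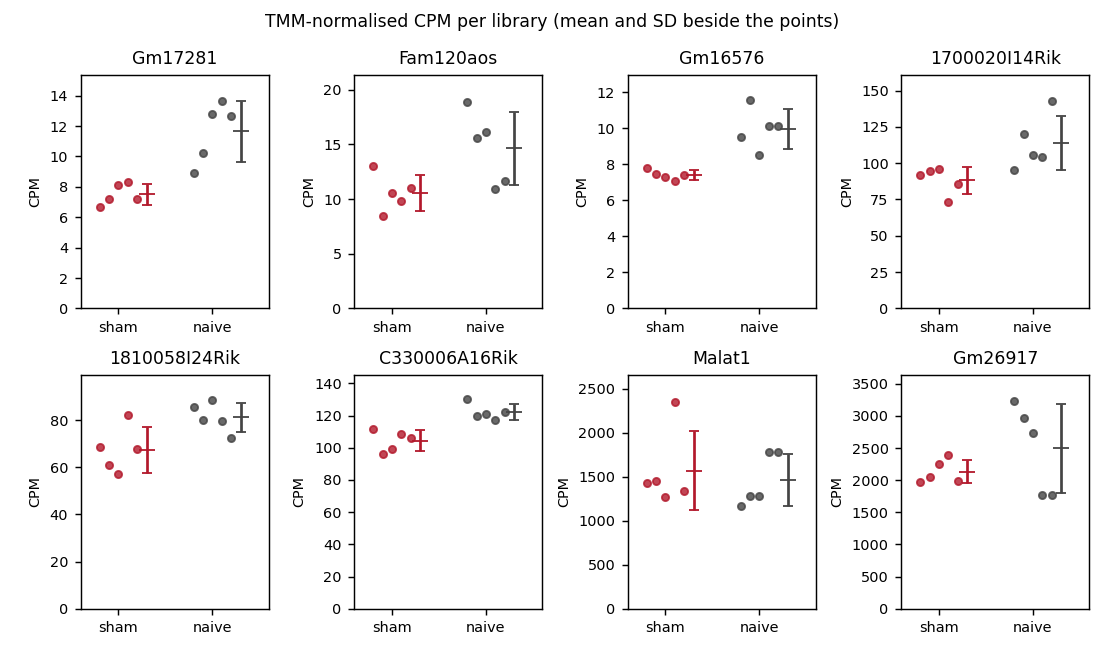
TMM-normalised CPM of the 6 lower lincRNAs and of Malat1 and Gm26917 in each library (points), sham left of naive, with mean and SD beside the points. The groups do not overlap in Gm17281, Gm16576 and C330006A16Rik and overlap in the other panels, and sham 4 is the highest point of Malat1 at 2354 CPM.

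The other 42 lincRNAs did not pass, with log2 fold changes from -0.72 to 0.36 and standard errors of 0.083 to 0.349. This says that no difference was detectable at these errors and not that the levels were equal. The largest decrease without a call was in Gm15906 (-0.72 ± 0.34, edgeR adjusted p = 0.121), next to Fndc5, which encodes the precursor of irisin and fell by 0.52 on the log2 scale (edgeR adjusted p = 1.09e-04). Carmn, the host of the miR-143 and miR-145 pair in smooth muscle, was at -0.11 ± 0.15 (edgeR adjusted p = 0.617), and Bvht, a lincRNA of early heart cell fate 2.2 kb from it, was at -0.03 ± 0.16 (edgeR adjusted p = 0.920). The markers of mural cells, which surround vessels and include smooth muscle, summed to 1137 to 1292 CPM in sham and 1049 to 1337 CPM in naive libraries, with 1 of 10 higher and 2 lower. AI480526, of which 66.6% of the exon bases overlap another gene, was at -0.06 ± 0.10 (edgeR adjusted p = 0.692). Of 21 listed lincRNAs known from heart studies 15 were in the table and 11 were tested, with 3 higher, 1 lower and 7 not past, against 17.2% higher and 15.5% lower over all tested genes. Mhrt, the antisense transcript of the myosin heavy chain locus, was at -0.02 (edgeR adjusted p = 0.952), and Miat was too low to be tested, with 105 sham counts and 31 naive counts.

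A pair of further short lists gave few values, and neither had a lower member. Of 6 listed genes of the X inactivation centre 3 were tested, and the ubiquitin ligase gene Rlim was higher at 0.37. Of 13 listed lincRNA symbols known to encode small peptides 5 were in the table and 1 was tested. It was 1500011K16Rik, which encodes a mitochondrial peptide of fatty acid oxidation, at -0.31 (edgeR adjusted p = 0.103). The lower lincRNA 1810058I24Rik, described above as encoding such a peptide, was not on this list.

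The lincRNAs varied somewhat more between libraries of a group than genes in general did. Their median coefficient of variation was 15.7% in sham and 19.6% in naive libraries, against 13.5% and 15.5% for all tested genes. Of the 51 matched in GENCODE M21, 44 keep the biotype lincRNA, 3 are antisense, 2 are bidirectional promoter transcripts and 2 are processed transcripts. Dancr and Gm28933 were not matched. The matched ones lie on 19 chromosomes with a median exon length of 2795 bases (range 323 to 20771), and 9 have a single exon. In 6 of them, none of which passed the test, over 20% of the exon bases overlap another gene, so that their counts are uncertain.

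The coding gene nearest to each lincRNA was set beside it. The median distance to that gene was 739 bases, and 13 of the 51 lay within the body of the coding gene or overlapped it. Of the 41 neighbours that could be tested, 5 were higher (12.2%, against 17.2% of all genes) and 8 lower (19.5%, against 15.5%). In 31 of 41 pairs both fold changes had the same sign, but 31 of the 41 lincRNAs and 25 of the 41 neighbours were below 0, so many pairs would share a sign in any case. Pearson's r between them was 0.343, a description over pairs that share the same 10 libraries, and in 10 pairs the gene bodies overlap on opposite strands, whose reads these libraries do not separate. Gm17281 with Pacsin3 was the only pair in which both passed.

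Neighbours of the higher lincRNAs did not pass or could not be tested, whereas several lincRNAs that did not pass lay beside genes that did. Prr33 was at -0.07 ± 0.08, and Lsp1, a leukocyte actin-binding protein gene whose body overlaps it on the other strand, rose by 1.27 ± 0.09 (edgeR adjusted p = 4.88e-08). The lincRNA 2610035D17Rik was at -0.22 ± 0.23, and Slc39a11, a zinc transporter gene 43.0 kb away, rose by 0.98 ± 0.17 (edgeR adjusted p = 4.31e-04). Frmd8, beside Neat1, rose by 0.59 ± 0.09 (edgeR adjusted p = 1.17e-04). The lincRNA 5033428I22Rik, 7.49 kb from Hand2, was at -0.08 ± 0.22, and Hand2, a transcription factor gene of heart development, fell by 0.52 on the log2 scale (edgeR adjusted p = 7.14e-04). In 10 pairs without overlap of the gene bodies, the starts lay back to back within 1000 bases of each other, with gaps of 57 to 679 bases. Of these lincRNAs 1 was higher (Snhg18) and 2 lower (Gm16576 and Fam120aos). Of their partners 0 were higher and 2 lower (Atxn1 and Map3k4), and in 0 of these pairs did both pass. Back-to-back pairs whose gene bodies overlap were not counted there. Among those left out were Gm17281 with Pacsin3, both lower, and Lppos with Lpp. Lppos did not pass, and Lpp was higher at 0.44 ± 0.15 (edgeR adjusted p = 0.0309).

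**Figure D5:**
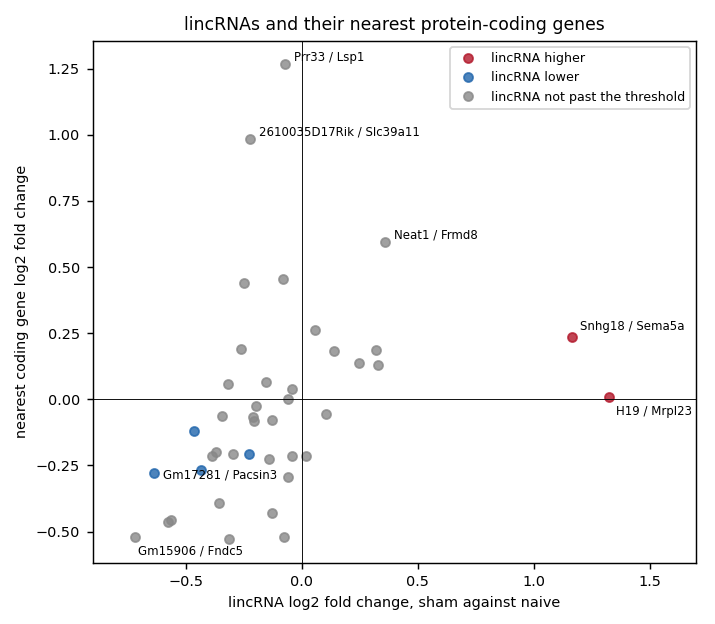
Log2 fold change of each lincRNA (x axis) and of its nearest protein-coding gene (y axis), sham against naive, for the 41 pairs with a tested neighbour. H19 and Snhg18 lie far to the right with neighbours at 0.01 and 0.24, while Lsp1 and Slc39a11 are high beside lincRNAs close to 0.

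Other cell type markers moved as follows, and their part in the lincRNA results was not tested. Endothelial markers summed to 1973 to 2083 CPM in sham and 2028 to 2370 CPM in naive libraries, with 1 of 12 higher and 3 lower. Mesothelial markers summed to 19.6 to 32.1 CPM in sham and 39.5 to 59.8 CPM in naive libraries, with 3 of 6 lower, and Schwann cell markers to 35.3 to 48.0 CPM in sham and 31.7 to 35.4 CPM in naive libraries, with 1 of 6 higher. Both tested lymphocyte markers of 10 listed were higher (sums of 5.70 to 7.22 CPM in sham and 1.42 to 2.90 CPM in naive libraries), as were both tested neutrophil markers of 6 listed (14.6 to 31.6 CPM in sham and 1.90 to 4.86 CPM in naive libraries). All 7 tested proliferation markers of 8 listed were higher, at sums of 38.5 to 65.9 CPM in sham and 8.80 to 14.02 CPM in naive libraries. All 10 interferon response genes were higher, at 147 to 384 CPM in sham and 74.9 to 89.0 CPM in naive libraries.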

How the data were processed

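The authors deposited raw read counts of Ensembl genes for 10 ventricle libraries, made on GRCm38 per the submitters' processing notes. Bowtie2, TopHat2 2.1.1, HTSeq, TopHat, DESeq and edgeR are named there without roles. Which annotation release, counting mode or strand setting was used is not given in these sources. The deposited table also gives each gene's GC content in percent, per the file headers, which served for a GC offset among the alternatives. Libraries without strand cannot separate a gene from another that overlaps it on the other strand.

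The 41264 rows held 574 repeats of an identifier, which were collapsed. Every row named a gene and every sample column was used. Groups came from the sample titles. Genes were kept by filterByExpr (minimum count 10, minimum total 15) in edgeR 4.0.16, scaled with TMM and tested with the robust quasi-likelihood F test on the group alone, in R 4.3.3. Log2 fold changes are sham against naive, and each SE is that value, unsigned, divided by the root of its F statistic. Code was tested on simulated data. Positions are GENCODE M21 on GRCm38, matched by identifier; promoters (29 of 53 lincRNAs had an entry) and microRNAs are RefSeq's on GRCm38.p6.

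The lincRNAs, gene lists and tests were chosen with earlier results of these data known. The rule for named lincRNAs took all those past the threshold, the 8 most abundant and list members. Outside it, Gm15906, Prr33, 2610035D17Rik, 5033428I22Rik and their neighbours were named after their values were seen. Other lincRNAs outside the rule, Bvht and Lppos among them, were named for their position, counts, annotation or change of call. Alternatives were other scalings, DESeq2 1.42.0, limma voom (limma 3.58.1), other filters and count limits, a GC offset, the replicate number as a block and each library left out.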

Additional observations from a re-analysis of the deposited data

Results flagged for a closer look

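Each group's 5 libraries were examined for a library far from the others in 18 named lincRNAs, which made 36 groups, and chance alone marks about 1 in 20 such groups. Malat1 in sham 4 stood at 2354 CPM, far from the next sham library at 1449 CPM, and sham 4 was also the sham library with the highest share of Gm42418 (8.87%). Meg3 in naive 3 stood at 1.03 CPM, below the next naive library at 1.31 CPM, and still far below the lowest sham library at 4.59 CPM.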

How the results depend on the processing

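Meg3, Mirg, Gm22, H19 and Snhg18 passed as higher in all 22 alternatives, with log2 fold changes of 2.1 to 2.43, 1.90 to 2.28, 1.37 to 1.74, 1.23 to 1.59 and 1.11 to 1.43. With each library left out in turn, 5 to 7 lincRNAs were higher and 3 to 9 lower (3 without sham 2, sham 3 or sham 5, and 9 without naive 1), against 5 and 6. Gm17281 passed in all 22 alternatives (-0.72 to -0.37), Gm16576 in 20, 1700020I14Rik in 19, C330006A16Rik in 17, Fam120aos in 13 and 1810058I24Rik in 8. With library size alone 1 was lower, Gm17281, and the median of the 53 was 0.13, with the median of all genes at 0.22 against -0.05 and 94.0% of all calls higher against 52.6%; then C330006A16Rik was at 0.039, Gm26917 at 0.045, AI480526 at 0.20, Snhg20 at 0.14 and Carmn at 0.15. With single libraries left out Snhg20 ran from -0.22 (without naive 5) to 0.012 (without naive 3), and Malat1 from -0.062 (without sham 4) to 0.18 (without naive 5). With a limit of 1000 counts 29 lincRNAs remained, of which 3 were higher, since Meg3 and Mirg fall below that limit, and the median was -0.21. Shares of reads, taken of library totals without TMM factors, were 0.416% in sham and 0.341% in naive libraries without features that resemble ribosomal RNA. Leaving out naive 1 and sham 4 together, chosen after seeing the data, gave 11 lower and Malat1 at -0.13. Same-numbered libraries correlated at 0.227, 0.035, 0.008, 0.293 and 0.292 in their deviations, and 3 of 5 correlated best with their own number, a hint from the data and not from the design. Since 2 of these values are close to 0, the number was not used to pair libraries. With the replicate block 10 lincRNAs were lower, with Gm26798, Gm5532, Gm26794 and 2900076A07Rik added to the 6, and Neat1 was higher (adjusted p = 0.0360); 12 were lower with the replicate block and the GC offset. Where no cause is given for a change, the cause was not tested. Depth limits Meg3 and Mirg in naive libraries, with 86 and 83 counts.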
